A study of Mus musculus with 24 samples.

Results

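The interferon-stimulated genes described here are 41 genes with established roles in the antiviral response, chosen by name and grouped by function, and all 41 were among the 14427 genes counted by RNA-seq in 24 libraries. The libraries came from 8 mouse astrocyte lines, 4 male and 4 female, with 3 libraries per line. Each sex had 1 line without p53 (p53 KO) and 3 lines in which mutant p53 was overexpressed, carrying R172H, Y202C or Y217C, and each mutant was compared with the KO of its own sex. All 8 lines derived from Trp53 f/- cortical astrocytes of postnatal day 1 pups with a C57BL/6 strain background, so every line carried 1 null Trp53 allele, and lentiviral Cre with puromycin selection removed the floxed allele in every line. The mutant lines had first received a retrovirus carrying mutant Trp53 and eGFP and had been sorted for eGFP. The KO lines received neither, so the presence of a mutant p53 cannot be told apart from the retrovirus and the sort. Cells of pups of 1 sex had been pooled, each line was 1 transduced population grown between passages 10 and 15 in serum-containing medium, and the 3 libraries of a line were separate thaws and platings, so the p-values measure the spread between platings of 1 line and not between animals or transductions.

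Interferon-stimulated genes are switched on when interferons bind their cell surface receptors. Type I interferons act through the receptor chains Ifnar1 and Ifnar2 and the kinases Jak1 and Tyk2, which activate signal transducers, Stat2 among them, that join Irf9 in a complex and bind the interferon-stimulated response element (ISRE) of target promoters. Type II interferon acts through the gamma-activated site (GAS). The products include sensors of foreign nucleic acid, proteins that block translation or degrade viral RNA, GTPases that attack viral or vacuolar structures, and transcription factors that extend the response. Astrocytes are known to make and answer interferons in the infected brain.

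The promoters of the members were examined first, since these genes are known to share control elements. RefSeq promoter windows of GRCm38.p6, holding 250 bases before and 50 bases after each annotated start, were found for 32 of the 41 members. Mx1, Mx2, Oas2, Rtp4, Dhx58, Parp9, Parp14, Usp18 and Zbp1 had none. The ISRE core was searched on both strands as GAAA, any 2 bases and GAAA again, which reads TTTC, any 2 bases and TTTC on the other strand, and the GAS motif as TTCNNNGAA, which is the same on both strands. The 200 bases before the start are shown for 7 members that carry the ISRE core there, with the matches in capitals and overlapping matches joined, and for Irf1, whose capitals mark a GAS match. These members were picked for their values below: Isg15 and Ifit1 rose strongly in female p53 R172H, Ifit3 and Ifit3b are near copies, Oas1a has the largest rise, Bst2 and Ifit3 are members that rose in male lines, and Gbp2 and Irf1 fell there. The stretches lie on Isg15 at chr4:156200819-156201018 on the minus strand, Ifit1 at chr19:34640689-34640888 on the plus strand, Ifit3 at chr19:34583329-34583528 on the plus strand, Ifit3b at chr19:34607757-34607956 on the plus strand, Oas1a at chr5:120907526-120907725 on the minus strand, Bst2 at chr8:71537473-71537672 on the minus strand, Gbp2 at chr3:142620463-142620662 on the plus strand and Irf1 at chr11:53769814-53770013 on the plus strand.
Isg15: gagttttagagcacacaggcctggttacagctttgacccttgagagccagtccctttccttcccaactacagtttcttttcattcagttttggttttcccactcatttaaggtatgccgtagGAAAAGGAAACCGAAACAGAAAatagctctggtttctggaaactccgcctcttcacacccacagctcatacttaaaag
Ifit1: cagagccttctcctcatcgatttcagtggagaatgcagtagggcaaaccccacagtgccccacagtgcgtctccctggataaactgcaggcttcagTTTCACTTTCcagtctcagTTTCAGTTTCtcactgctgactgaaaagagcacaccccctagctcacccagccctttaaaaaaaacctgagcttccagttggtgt
Ifit3: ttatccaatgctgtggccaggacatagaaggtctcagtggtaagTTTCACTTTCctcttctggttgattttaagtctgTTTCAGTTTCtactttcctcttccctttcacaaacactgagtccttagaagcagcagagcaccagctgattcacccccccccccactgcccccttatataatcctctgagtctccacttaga
Ifit3b: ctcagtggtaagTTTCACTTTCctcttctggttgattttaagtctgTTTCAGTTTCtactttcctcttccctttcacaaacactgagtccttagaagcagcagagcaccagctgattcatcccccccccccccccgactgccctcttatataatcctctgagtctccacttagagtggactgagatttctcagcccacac
Oas1a: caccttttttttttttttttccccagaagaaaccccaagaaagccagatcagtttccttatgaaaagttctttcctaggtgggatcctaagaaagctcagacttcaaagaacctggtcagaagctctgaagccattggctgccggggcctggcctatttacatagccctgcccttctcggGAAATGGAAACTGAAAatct
Bst2: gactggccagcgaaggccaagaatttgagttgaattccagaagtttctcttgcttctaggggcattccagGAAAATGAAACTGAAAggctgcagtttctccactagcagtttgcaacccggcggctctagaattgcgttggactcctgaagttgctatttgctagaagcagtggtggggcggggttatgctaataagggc
Gbp2: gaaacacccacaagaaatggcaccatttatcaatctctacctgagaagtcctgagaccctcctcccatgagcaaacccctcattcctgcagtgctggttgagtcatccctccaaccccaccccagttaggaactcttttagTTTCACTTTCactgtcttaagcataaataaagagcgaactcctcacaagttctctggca
Irf1: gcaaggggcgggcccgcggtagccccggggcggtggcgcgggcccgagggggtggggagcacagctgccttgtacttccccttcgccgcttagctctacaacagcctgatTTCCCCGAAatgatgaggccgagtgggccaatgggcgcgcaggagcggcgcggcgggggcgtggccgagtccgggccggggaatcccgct
Isg15 carried 3 overlapping ISRE cores, in a stretch that began 78 bases before the start. Ifit3 and Ifit3b each carried a pair of cores, in promoter windows that matched at 259 of 260 aligned bases, and Ifit1 carried a pair nearer its start. The ISRE core occurred in 19 of the 32 members with a window (59.4%) and in 3.99% of the 27025 genes with a window. The GAS motif occurred in 9 of the 32 (28.1%) and in 9.55% of all genes. Both motifs occurred in 6 members, in Bst2 and Ifitm3 with shared bases, and 10 members held neither, among them Irf7, Irf9, Oasl2, Cmpk2 and Ifi44. A match is a description of letters in the window and not a measured site of binding.

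**Figure D1:**
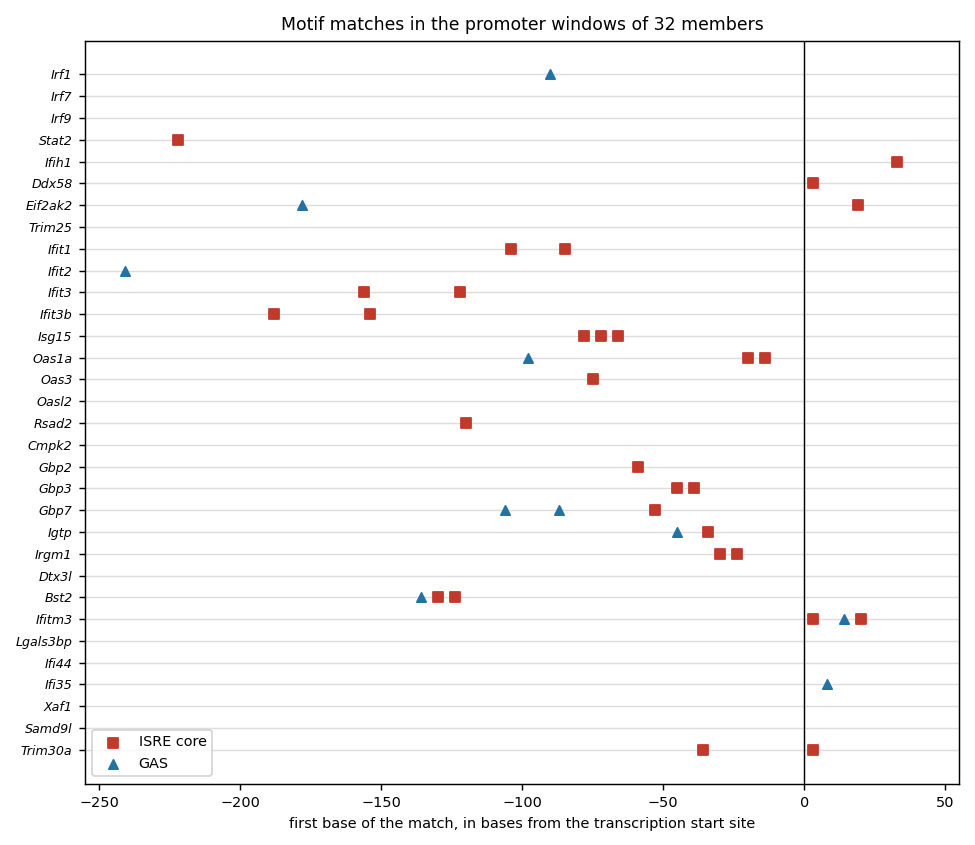
Positions of the ISRE core (squares) and GAS motif (triangles) in the promoter windows of 32 members, as the first base of each match counted in bases from the transcription start site (vertical line at 0), 1 row per gene. Most ISRE matches begin within the last 160 bases before the start. Stat2 and Ifit3b hold one further upstream, Ifih1, Ddx58, Ifitm3, Eif2ak2 and Trim30a hold one after the start, and 10 rows hold no match.

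Library totals ran from 52787288 to 136503809 counts, and log2 CPM of libraries of 1 line correlated at 0.991 to 0.997 over genes. Trp53 checked the labels: its level was 46.5 to 53.7 CPM (counts scaled to a common library size by edgeR, per 1e+06 counts) in the 6 KO libraries and 572 to 3870 CPM in the 18 mutant libraries, without overlap. A count per gene does not separate the deleted exons from the rest. The mutants were not equally abundant. Female p53 Y217C had the highest Trp53 level (3710 ± 162 CPM, SD, n = 3) and female p53 Y202C the lowest of the mutants (593 ± 18.0 CPM). The astrocyte label was not borne out by every marker, since Gfap was at or below 0.257 CPM in all line means but male p53 Y217C (6.93 CPM) and Aqp4 was at 0 counts in every library of male p53 R172H and female p53 KO, whereas line means ran from 3330 to 4740 CPM for Vim and from 3360 to 21800 CPM for the fibroblast gene Col1a1. Gfap, Aqp4 and Vim were picked from 10 astrocyte markers analysed, and the levels of the others are not given here. The study itself assessed astrocyte purity by immunofluorescence for the GFAP protein. Of 15 microglia and macrophage markers, 3 were among the genes analysed.

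Across the 8 lines the 41 members had 1 dominant pattern. Every member had its highest line mean in female p53 R172H, and 38 of 41 had the next highest in female p53 Y202C. The summed level of the 41 genes was 5250 ± 778 CPM in female p53 R172H (libraries at 4600 to 6110 CPM) and 1550 ± 118 CPM in female p53 Y202C. It lay between 408 ± 25.2 CPM (male p53 Y217C) and 616 ± 42.6 CPM (female p53 Y217C) in the other 6 lines, KO lines included. All 3 female p53 R172H libraries exceeded all 21 other libraries for 40 members, a pattern found in 8.54% of all genes, and the exception was Ifit2, whose lowest female p53 R172H library (51.8 CPM) fell just under the highest of male p53 Y217C (52.0 CPM). All 3 female p53 Y202C libraries exceeded those of the 6 remaining lines for 35 members, against 9.59% of all genes. In bulk RNA, fewer cells that respond and less RNA per cell cannot be told apart.

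**Figure D2:**
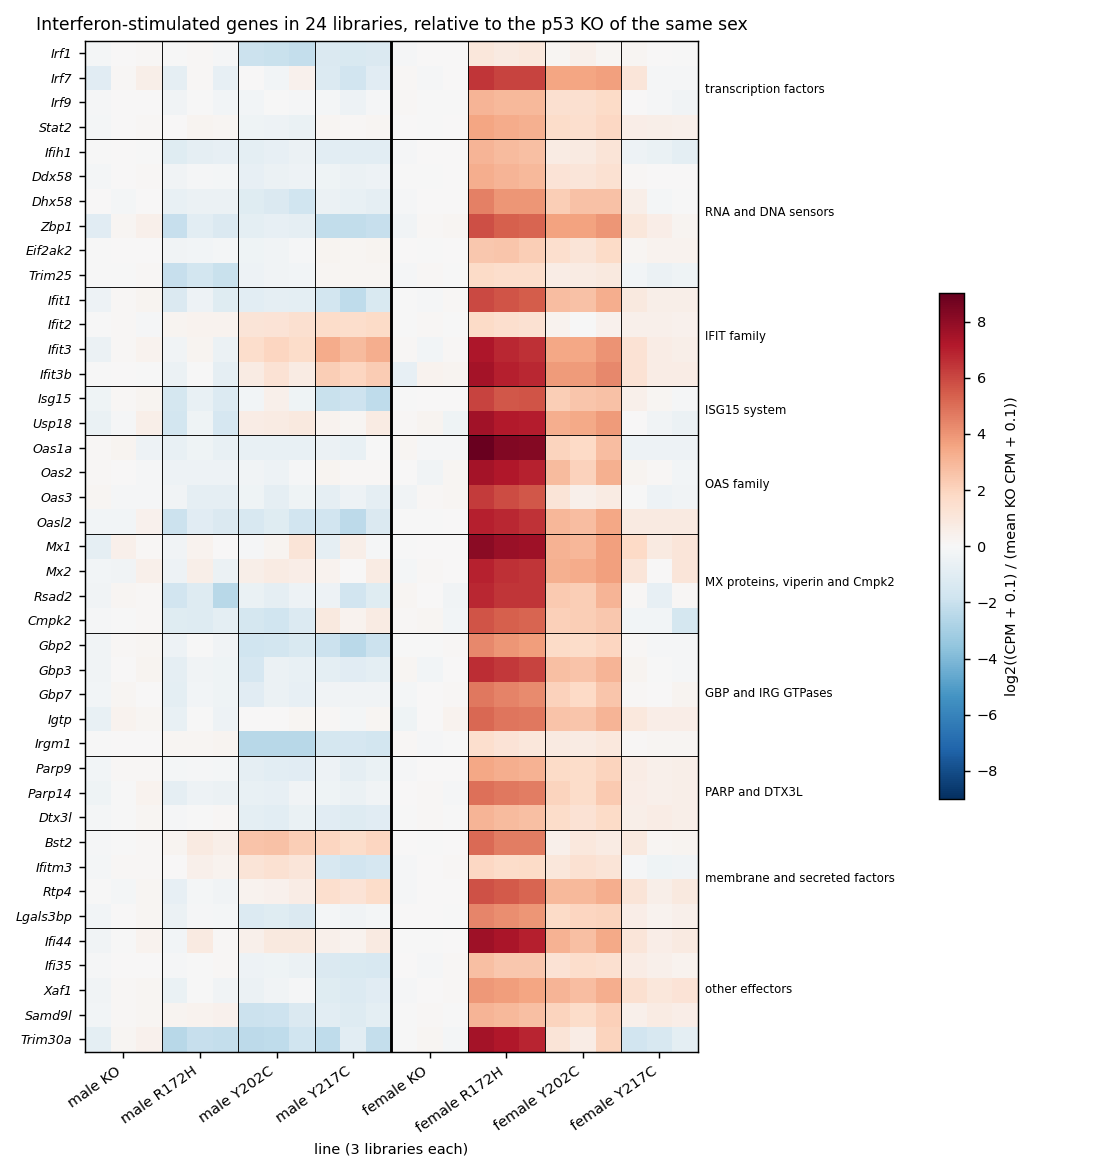
Level of the 41 members (rows, grouped by role) in the 24 libraries (columns, 3 per line), as log2 of CPM + 0.1 relative to the mean of the p53 KO of the same sex. Female p53 R172H is red in all 41 rows and female p53 Y202C paler red, whereas the male mutant lines hold both blue and red rows. The strongest male reds are Ifit3, Ifit3b and Bst2.

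In female p53 R172H all 41 members rose against female p53 KO (adjusted p of 0.05 or less by edgeR's quasi-likelihood test with Benjamini-Hochberg adjustment over all 14427 genes), where 34.4% of all genes rose and 35.3% fell. The member median of the log2 fold change was 4.85, and that of all genes was -0.01. Because the deposited table leaves out genes with low counts, 4 members (Oas1a, Oas2, Oas3 and Trim30a) exceeded 1 CPM in 3 or more libraries only through female p53 R172H, so these were kept by the line in which they are high. The other 37 members all rose as well, with a median of 4.57.

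The 3 largest rises were those of Oas1a, Mx1 and Oas2. Oas1a, which makes the 2′-5′ oligoadenylate that activates RNase L, was read 2 to 6 times per library in female p53 KO and 4252 to 6106 times in female p53 R172H. Its levels were 0.0589, 0.0256 and 0.029 CPM in the female p53 KO libraries and 64.7, 45.3 and 42.0 CPM in the female p53 R172H libraries. The ratio of the pooled levels was 1280, with a 95% exact interval of 715 to 2570 that covers counting error only. The fitted log2 fold change was 10.30 ± 0.37 (SE; adjusted p = 2.02e-15). Each SE of a log2 fold change here is its size divided by the square root of the test's F statistic. It is uncertain where counts are very low. The paralog Oas1g shares 57.6% of the 50-base stretches of the Oas1a transcripts, and ambiguous reads were not counted, so the level of Oas1a is uncertain. Oas2, of the same enzyme family, had a log2 fold change of 8.64 ± 0.32 (adjusted p = 3.71e-16), from 2 to 8 reads per KO library. Mx1, of the MX family of dynamin-like GTPases, rose by a log2 fold change of 9.06 ± 0.40 (adjusted p = 1.19e-15), from 6 to 8 reads per library in KO to 34.9 to 49.3 CPM. Oas1a and Oas2 were kept only through female p53 R172H, and Mx1 only through it and female p53 Y202C. The passing of these genes in female p53 R172H is therefore no independent result. No median is given for the OAS family, since 3 of its 4 genes were kept by the line in which they are high.

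Rsad2 (viperin) makes a chain-terminating nucleotide that stops viral polymerases. Its level was 0.295, 0.256 and 0.174 CPM in female p53 KO and 38.5, 29.8 and 29.4 CPM in female p53 R172H. Usp18, the protease that removes Isg15 from proteins and damps receptor signalling, was at 0.54, 0.615 and 0.357 CPM in female p53 KO and 113, 83.1 and 80.4 CPM in female p53 R172H. Neither gene's libraries overlapped between the lines. Isg15 itself, the ubiquitin-like modifier, went from a line mean of 4.40 to 250 CPM. Per kilobase of exon, which allows genes to be compared, the highest members in female p53 R172H were Ifitm3 (916 ± 73.3 CPM per kb), Bst2 (336 ± 72.4) and Isg15 (331 ± 57.0), and Ifitm3 was also the highest in female p53 KO (276 ± 21.4).

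The 4 IFIT genes, neighbours within chr19:34550694-34650009 (GRCm38), encode proteins that bind foreign RNA. Ifit3b was at 0.265, 0.64 and 0.618 CPM in female p53 KO and 107, 77.9 and 65.4 CPM in female p53 R172H. Its near copy Ifit3 reached 327, 232 and 199 CPM, from 2.13, 1.64 and 2.17 CPM. Of the 50-base stretches of the Ifit3 transcripts 51.2% were also found in Ifit3b, and 44.5% of those of Ifit3b in Ifit3, so the separate levels of these neighbours are uncertain. Ifit2 moved least of the family, from 20.0 ± 1.14 to 58.1 ± 6.46 CPM. The family median of the log2 fold change was 6.35.

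Among the transcription factors, Irf7, the factor that amplifies interferon production, stood at 1.14, 0.961 and 1.06 CPM in female p53 KO and 102, 77.2 and 78.6 CPM in female p53 R172H. Irf1 had the smallest change of all members, from 35.8 to 67.8 CPM (line means). The sensors were led by Zbp1, a sensor of Z-form nucleic acid that triggers cell death, with 0.53, 0.743 and 0.763 CPM in KO and 44.1, 33.0 and 29.7 CPM in the mutant. The other sensors, Ifih1 (MDA5), Ddx58 (RIG-I), Dhx58 (LGP2), the kinase Eif2ak2 (PKR) and the ligase Trim25, all rose, with a group median of 2.99.

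Among the interferon-induced GTPases, Gbp3 was at 1.33, 0.973 and 1.2 CPM in female p53 KO and 129, 103 and 84.7 CPM in female p53 R172H. Of the PARP group, Parp14, a mono-ADP-ribosyltransferase, rose from 3.19, 3.36 and 2.94 CPM to 102, 88.8 and 81.3 CPM. Rtp4, a chaperone of membrane receptors, led the membrane and secreted factors, with 1.29, 1.43 and 1.46 CPM in KO and 78.0, 69.2 and 57.2 CPM in the mutant. In each case the KO libraries lay within a narrow range far below the mutant. Trim30a, a ligase that restrains inflammatory signalling, went from 0.295, 0.371 and 0.261 CPM to 72.7, 61.0 and 47.7 CPM. Within female p53 R172H 1 library was the highest for 40 of 41 members, and the library lowest for most was the lowest for 34. Parp9 and Dtx3l overlap by 458 exonic bases on opposite strands, and whether the counting used strand is not stated.

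**Figure D3:**
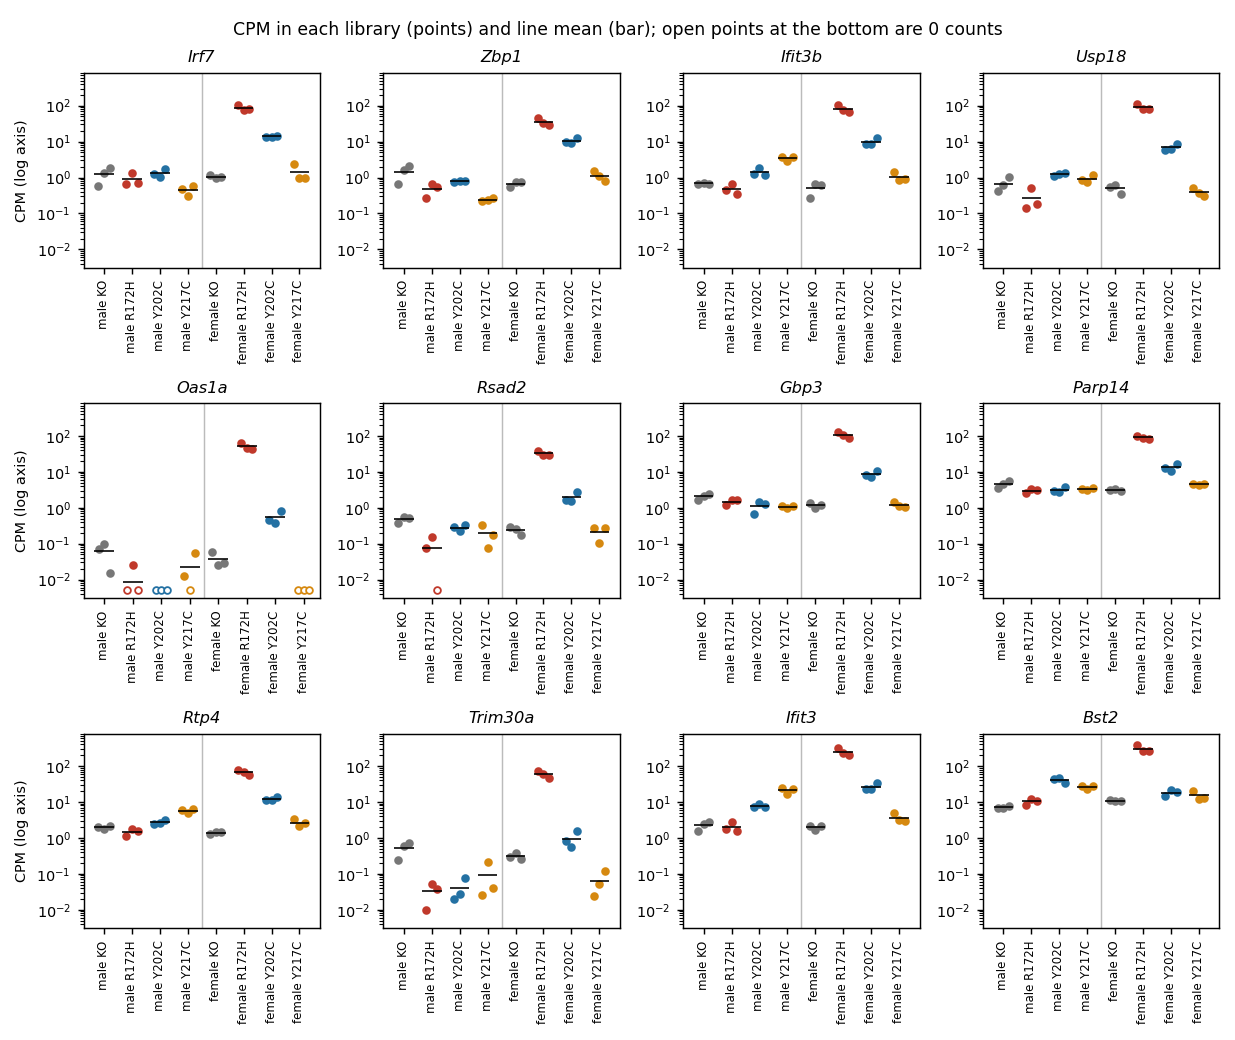
CPM (log axis) of the member of each role whose lines differ most, and of Ifit3 and Bst2, in each of the 24 libraries (points, coloured by genotype), with the line mean as a bar and libraries without a count as open points at the bottom. Female p53 R172H is highest in every panel and female p53 Y202C is next in all but that of Bst2, where male p53 Y202C is next.

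Female p53 Y202C showed the same members at a lower level. All 41 rose against female p53 KO, where 34.3% of all genes rose, with a member median of 2.19 (all genes -0.00), and every female p53 R172H library exceeded every female p53 Y202C library for all 41, which held for 30.0% of all genes. Besides the 4 members named above, Mx1, Mx2, Rsad2 and Cmpk2 passed 1 CPM in 3 libraries only through these 2 female lines, and the other 33 members all rose, with a median of 1.96. Mx1 rose to 1.42, 1.31 and 2.2 CPM, a log2 fold change of 4.46 ± 0.46 (adjusted p = 1.00e-08). Ifit3b rose to 8.45, 8.44 and 12.2 CPM, a log2 fold change of 4.28 ± 0.27 (adjusted p = 1.10e-12). Oas2 followed, with 4.07 ± 0.38 (adjusted p = 3.31e-09), and the ratio of its pooled levels was 17.4 with a counting interval of 10.4 to 31.1.

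Irf7 in female p53 Y202C stood at 13.5, 13.6 and 14.5 CPM, Zbp1 at 9.48, 9.38 and 12.4 CPM, and Rtp4 at 11.2, 11.3 and 14.2 CPM, each without overlap with any of the 6 lines below. Usp18 was at 5.84, 6.26 and 8.64 CPM, and Gbp3 at 8.19, 7.28 and 10.3 CPM. Oas1a, by contrast, did not exceed 0.831 CPM and Trim30a did not exceed 1.51 CPM. Ifit2 had the smallest change of the 41, from 20.0 to 23.5 CPM (line means). The library with the highest value was the same for 35 of 41 members.

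In female p53 Y217C the summed level of the members was close to that of the KO (616 ± 42.6 and 567 ± 18.9 CPM), but more members rose than fell. Here 20 members rose and 3 fell, against 28.0% and 28.7% of all genes, with a member median of 0.42. Mx1 had the largest rise, to 0.517, 0.203 and 0.266 CPM, a log2 fold change of 2.15 ± 0.60 (adjusted p = 0.00367). Xaf1, a pro-apoptotic factor, rose from 14.9 to 35.2 CPM (line means), a log2 fold change of 1.24 ± 0.15 (adjusted p = 1.66e-07). Mx2 rose by 1.13 ± 0.40 (adjusted p = 0.0199). All 4 IFIT genes and all 3 of Parp9, Parp14 and Dtx3l were among the 20. The falls were Trim30a, with a log2 fold change of -2.30 ± 0.70 (adjusted p = 0.00723), Ifih1 with -0.63 ± 0.12 (adjusted p = 0.000114) and Trim25 with -0.39 ± 0.08 (adjusted p = 0.00022). Oas1a was at 0 counts in all 3 libraries. One of the 3 libraries, replicate 1, was the highest for 33 of 41 members, and without it 13 members rose and 5 fell, and Mx1 did not pass (1.63, adjusted p = 0.0515). Mx2 did not pass without any 1 of female p53 Y217C replicate 1, female p53 Y217C replicate 3 or female p53 KO replicate 1 (adjusted p = 0.0707 to 0.121).

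In each male mutant more members fell than rose. In male p53 R172H 2 members rose and 14 fell against male p53 KO, where 20.2% of all genes rose and 20.5% fell, and the member median was -0.42. Trim30a fell from 0.242, 0.596 and 0.731 CPM to 0.00969, 0.0512 and 0.0382 CPM, a log2 fold change of -4.09 ± 0.68 (adjusted p = 4.03e-05). Rsad2 fell from 0.375, 0.541 and 0.518 CPM to 0.0775, 0.154 and 0 CPM, a log2 fold change of -2.64 ± 0.50 (adjusted p = 0.000168). Both genes were near the limit of detection in the male lines. Trim25, the ubiquitin ligase that activates RIG-I, was more abundant and fell from 24.5 to 6.48 CPM (line means), a log2 fold change of -1.93 ± 0.09 (adjusted p = 2.48e-14). The rises were those of Bst2 (tetherin), 0.53 ± 0.18 (adjusted p = 0.0209), and Ifit2, 0.29 ± 0.09 (adjusted p = 0.0128). Bst2 did not pass without any 1 of male p53 KO replicate 1, male p53 KO replicate 2 or male p53 R172H replicate 2 (adjusted p = 0.0608 to 0.135), nor Ifit2 without male p53 KO replicate 3 (adjusted p = 0.0638).

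Male p53 Y202C and male p53 Y217C split the set. In male p53 Y202C 9 members rose and 23 fell, against 37.6% and 35.4% of all genes, with a member median of -0.59. Bst2 rose from 6.69, 6.9 and 7.74 CPM to 43.0, 45.4 and 33.1 CPM, a log2 fold change of 2.51 ± 0.18 (adjusted p = 6.44e-12). Ifit3 rose by 1.74 ± 0.24 (adjusted p = 7.05e-07) and Ifit2 by 1.30 ± 0.09 (adjusted p = 5.48e-12). Irgm1, a GTPase of autophagy and vacuole defence, fell from 63.4 to 11.2 CPM (line means), a log2 fold change of -2.50 ± 0.09 (adjusted p = 2.46e-17). Trim30a fell by 3.81 ± 0.67 on the log2 scale (adjusted p = 1.91e-05) and Cmpk2 by 2.07 ± 0.33 (adjusted p = 4.57e-06). All 6 sensors and all 3 members of the PARP group fell, and Irf1 and Stat2 fell among the transcription factors.

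In male p53 Y217C 7 members rose and 23 fell, against 34.9% and 35.6% of all genes, with a median of -0.62. Ifit3 rose from 1.51, 2.48 and 2.83 CPM to 24.2, 17.2 and 23.3 CPM, a log2 fold change of 3.21 ± 0.23 (adjusted p = 1.39e-11), close to its level in female p53 Y202C (23.5, 23.0 and 33.7 CPM). Ifit3b rose by 2.31 ± 0.26 (adjusted p = 2.65e-08) and Bst2 by 1.86 ± 0.18 (adjusted p = 1.60e-09). The neighbouring gene Ifit1 moved the other way, from 4.68, 6.8 and 7.74 CPM to 2.0, 1.24 and 2.46 CPM. Isg15 fell from 3.41, 4.83 and 5.42 CPM to 1.05, 1.18 and 0.87 CPM, a log2 fold change of -2.16 ± 0.26 (adjusted p = 1.23e-07). Zbp1 fell by 2.60 ± 0.38 on the log2 scale (adjusted p = 1.55e-06) and Trim30a by 2.52 ± 0.55 (adjusted p = 0.000294). Thus Ifit2, Ifit3 and Ifit3b passed as higher and Ifit1 as lower in both of these lines, and the printed promoters of Ifit1 and Ifit3 each hold a pair of ISRE cores. Ifitm3, which blocks viral fusion, passed as higher in male p53 Y202C (117, 143 and 140 CPM in KO and 296, 338 and 287 CPM in the mutant) and as lower in male p53 Y217C (49.8, 41.1 and 47.8 CPM).

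**Figure D4:**
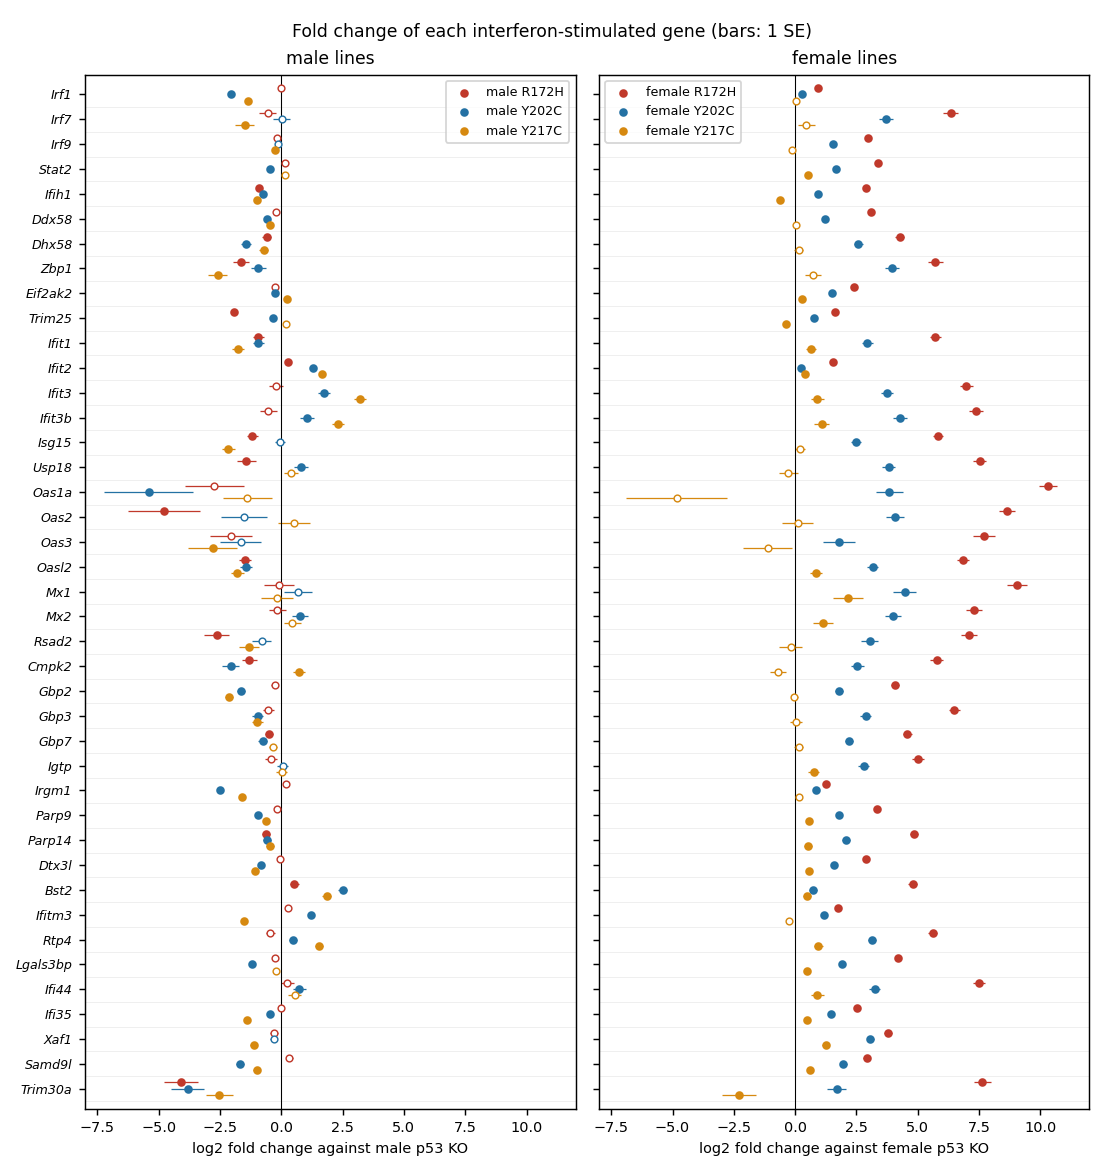
Log2 fold change of each member against the p53 KO of its sex (points, bars 1 SE), male lines on the left and female lines on the right, filled where the adjusted p was 0.05 or less. Female p53 R172H and female p53 Y202C lie to the right of 0 for all 41 members, whereas the male lines lie on both sides, with Bst2 and Ifit2 on the right in all 3 and Ifit3 and Ifit3b on the right for Y202C and Y217C.

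The KO lines that served as baselines were also compared with each other. Between male and female p53 KO 14 members were higher in the male line and 5 in the female line, where 17.2% and 13.8% of all genes were, and the member median was 0.36. Zbp1 was higher in male p53 KO by a log2 fold change of 1.12 ± 0.30 (adjusted p = 0.00619), Rsad2 by 1.01 ± 0.39 (adjusted p = 0.0484) and Gbp3 by 0.85 ± 0.22 (adjusted p = 0.00485). Trim25 was lower by 0.91 ± 0.08 on the log2 scale (adjusted p = 3.15e-09), Bst2 by 0.62 ± 0.18 (adjusted p = 0.00958) and Ifitm3 by 0.49 ± 0.11 (adjusted p = 0.00113). In male p53 KO replicate 1 was the lowest for 33 of 41 members and replicate 3 the highest for 29. Without replicate 3 of male p53 KO 7 members were higher and Zbp1 did not pass (0.79, adjusted p = 0.076). Rsad2 passed only as long as all of these libraries but male p53 KO replicate 1 were kept.

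Whether a mutation went with like changes in the male and the female line was tested as the male effect minus the female effect. Each sex was 1 pooled culture and each mutant 1 transduced line, so sex cannot be told apart from culture or transduction. Mean Trp53 levels in the male and female lines were 2290 and 1960 CPM for R172H, 2320 and 593 CPM for Y202C, and 1220 and 3710 CPM for Y217C. For R172H all 41 members passed as lower in the male comparison (28.3% of all genes did), with a median difference of -5.43. Without the members kept only through female p53 R172H, the other 37 all passed, with a median of -4.86. For Y202C 38 passed as lower and 2 as higher (33.5% and 34.5% of all genes), the latter being Bst2 and Ifit2, and the median was -3.01. For Y217C 21 passed as lower and 7 as higher (27.4% and 27.5% of all genes), with a median of -0.74, and both directions were held within the IFIT family, with Ifit1 lower and Ifit2, Ifit3 and Ifit3b higher. Among members that passed, the differences with the largest size were those of Oas2 and Oas1a for R172H, -13.44 ± 1.33 and -13.03 ± 1.31 (adjusted p = 1.69e-08 and 5.21e-08). These depend on a small count added in the fit, because Oas2 was at 0 counts in all libraries of male p53 R172H and Oas1a had at most 2. Both genes were also kept only through female p53 R172H, the line in which they are high, so their passing for R172H is no independent result. For Y202C the largest differences among members that passed were Oas1a, -9.24 ± 1.67, and Oas2, -5.58 ± 1.00 (adjusted p = 5.93e-05 and 4.02e-05), with the same limit of low counts. For Y217C they were Zbp1, -3.35 ± 0.50 (adjusted p = 4.57e-06), and Oasl2, -2.66 ± 0.35 (adjusted p = 7.86e-07).

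The rest of the pathway was examined with lists that do not contain the members. Of 15 interferon receptor and signalling genes 11 rose and 1 fell in female p53 R172H and 11 rose and 3 fell in female p53 Y202C, with medians of 0.44 and 0.31, where 34.4% and 34.3% of all genes rose and 35.3% and 34.3% fell. The largest rises were those of Socs3, a feedback inhibitor of cytokine signalling, in female p53 R172H (2.68 ± 0.07, adjusted p = 5.64e-20) and of Ptpn6, a phosphatase that acts on the receptor kinases, in female p53 Y202C (1.19 ± 0.13, adjusted p = 2.24e-08). The largest falls were Cul5 (-0.30 ± 0.08) and Ifngr2 (-0.48 ± 0.05). The receptor chain Ifnar1 ranged between 74.2 and 92.1 CPM over the 8 line means. In female p53 Y217C 9 of the 15 rose and 2 fell, and in male p53 R172H, Y202C and Y217C 6, 7 and 4 rose and 3, 5 and 6 fell. Of all genes 28.0% rose and 28.7% fell in female p53 Y217C, and 20.2%, 37.6% and 34.9% rose and 20.5%, 35.4% and 35.6% fell in the male lines.

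None of 11 interferon genes looked for was among the genes analysed, and those genes were not analysed here. Of 19 genes of the sensing pathway upstream of interferon, 8 rose and 3 fell in female p53 R172H, led by the double-stranded RNA receptor Tlr3 (2.64 ± 0.14), and 9 rose and 4 fell in female p53 Y202C, led by Tmem173 (STING; 0.83 ± 0.09). The largest falls were Rnaseh2a, a subunit of the nuclease that removes RNA from DNA hybrids (-1.03 ± 0.07 in female p53 R172H), and Cgas, the cytosolic DNA sensor (-1.80 ± 0.13 in female p53 Y202C). The list medians were 0.12 and 0.06. Of all genes 34.4% rose and 35.3% fell in female p53 R172H, and 34.3% rose and 34.3% fell in female p53 Y202C. The share of the list that rose was somewhat above that of all genes, and the share that fell was below it. Whether a list of 19 genes differs from all genes by these counts was not tested.

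A further 71 interferon-stimulated genes outside the 41 gave the same order of lines by their medians. They too were chosen with earlier results of these data known, so they are no independent check. Others looked for, such as Gbp4, Gbp5 and Irf8, were not among the genes analysed. How many of the 71 were kept only through a line in which they are high was not counted. In female p53 R172H 68 rose and 2 fell (median 2.90), in female p53 Y202C 59 rose and 4 fell (median 1.26) and in female p53 Y217C 27 rose and 13 fell (median 0.16). In male p53 R172H 12 rose and 24 fell, in male p53 Y202C 23 and 27, and in male p53 Y217C 16 and 35, with medians of -0.05, -0.22 and -0.43. Of all genes 34.4%, 34.3% and 28.0% rose in the 3 female comparisons, in the same order, and 35.3%, 34.3% and 28.7% fell. In the male comparisons 20.2%, 37.6% and 34.9% of all genes rose and 20.5%, 35.4% and 35.6% fell, so the counts in male p53 Y202C were near those of all genes. The largest rise in female p53 R172H was that of Slfn2, and in female p53 Y202C that of Ifi204, a DNA sensor of the AIM2-like family, which was at 15.4 CPM there, 38.3 CPM in female p53 R172H and 0.308 CPM in female p53 KO (line means). Ifi204 was also the largest rise in male p53 Y217C (4.94 ± 0.17; 41.3 CPM), where 23 of the 41 members fell.

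**Figure D5:**
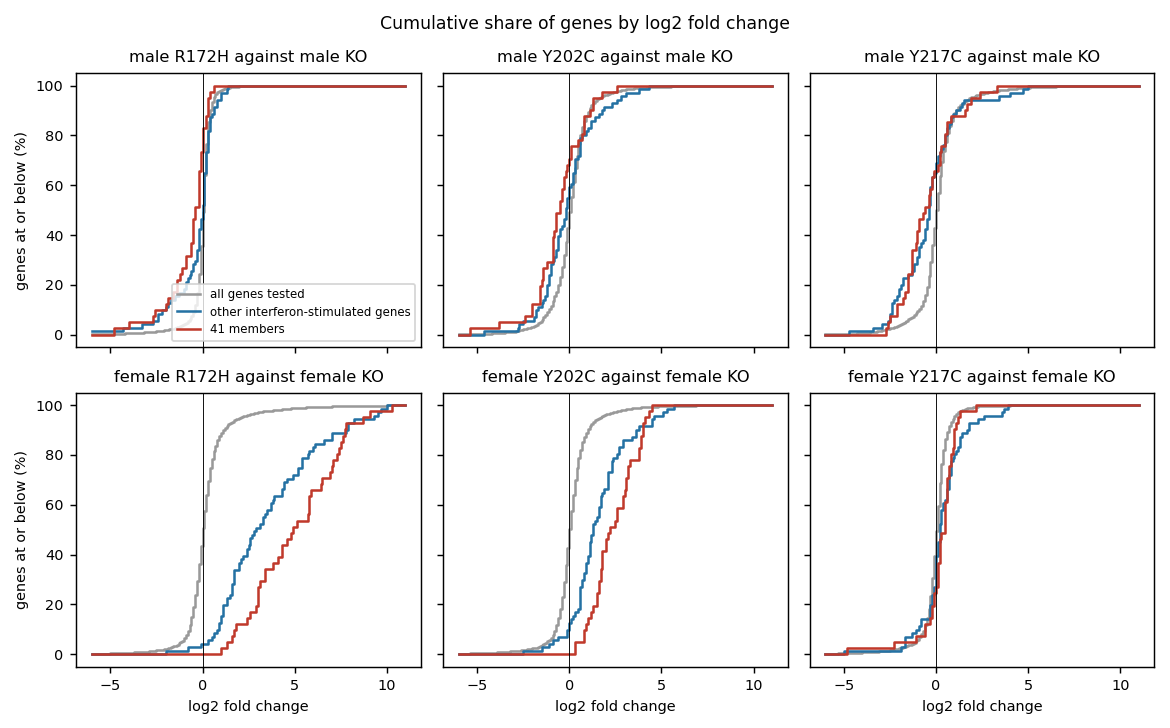
Cumulative share of genes (vertical axis, %) by log2 fold change (horizontal axis) in the 6 comparisons, for the 41 members (red), 71 other interferon-stimulated genes (blue) and all genes tested (grey). In female p53 R172H and female p53 Y202C both lists lie to the right of all genes over most of the range, and in the 3 male comparisons the members' curve lies to the left of all genes around 0.

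Markers of other cell types also differed between these lines. Of 6 fibroblast and pericyte markers 5 rose and 1 fell in female p53 R172H and in female p53 Y202C. There 34.4% and 34.3% of all genes rose and 35.3% and 34.3% fell. In male p53 R172H, Y202C and Y217C 2, 1 and 1 of the 6 rose and 2, 3 and 4 fell. The shares of all genes were 20.2%, 37.6% and 34.9% higher and 20.5%, 35.4% and 35.6% lower. The summed level of these markers was 22300 to 24000 CPM in female p53 KO. It was 35300 to 41300 CPM in female p53 R172H and 31100 to 36900 CPM in female p53 Y202C. That sum is mostly Col1a1, and single markers moved further, of which the following were picked after their values were seen. Lum, a matrix proteoglycan, had a line mean of 0.14 CPM in the female p53 KO, and among the female mutants R172H reached 18.2 CPM while Y202C and Y217C both stood at 0.675 CPM. Dcn, of the same family, went from a line mean of 2.2 CPM in the female p53 KO to 105 CPM with R172H, 15.4 CPM with Y202C and 7.98 CPM with Y217C. Rgs5, a pericyte marker, fell in each of the 3 female mutants and in each of the 3 male mutants. Of 4 oligodendrocyte lineage markers found among 8 looked for, 3 rose and 1 fell in each female mutant. The shares of all genes in female p53 R172H, Y202C and Y217C were 34.4%, 34.3% and 28.0% higher and 35.3%, 34.3% and 28.7% lower. In male p53 R172H, Y202C and Y217C 2, 0 and 1 of the 4 rose and 1, 3 and 3 fell. Olig1, Olig2 and Sox10 were not among the genes analysed. Pdgfra, which marks both oligodendrocyte precursors and fibroblasts, had female log2 fold changes of 5.74 ± 0.14 for R172H, 5.54 ± 0.14 for Y202C and 1.45 ± 0.13 for Y217C. In the male lines it was -2.68 ± 0.13 for R172H, -1.32 ± 0.12 for Y202C and -2.90 ± 0.13 for Y217C. Thus Pdgfra passed as higher in every female mutant and as lower in every male mutant (edgeR, adjusted p of 0.05 or less). The KO baselines differed as well. Pdgfra was higher in male p53 KO than in female p53 KO by 2.71 ± 0.13 on the log2 scale (adjusted p = 4.48e-14). The 3 microglia and macrophage markers found, Tmem119, Csf1r and Cd68, summed to 45.8 to 49.6 CPM in female p53 KO, 105 to 116 CPM in female p53 R172H, 75.0 to 90.3 CPM in female p53 Y202C and 97.0 to 105 CPM in female p53 Y217C, almost all of it Tmem119, whereas the defining genes Aif1, Cx3cr1, P2ry12, Itgam and Ptprc were not among the genes analysed. In this sum female p53 Y217C exceeded female p53 Y202C, but the single markers had different orders. In female p53 R172H, Y202C and Y217C the log2 fold changes of Tmem119 were 1.26 ± 0.08, 0.78 ± 0.08 and 1.12 ± 0.08. Those of Csf1r were 0.90 ± 0.24, 2.29 ± 0.24 and -0.14 ± 0.26, and those of Cd68 were -0.47 ± 0.15, -0.24 ± 0.15 and -0.07 ± 0.15. The part of these markers in the members' levels was not tested.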

How the data were processed

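Total RNA of 8 mouse astrocyte lines was sequenced in 24 libraries. Per the labels and the study's methods, the authors aligned reads with STAR 2.5.1a to an Ensembl mouse assembly, used featureCounts to count reads that aligned once and fell in 1 gene, and deposited raw counts after removing ribosomal and low genes; whether strand was used is not given in the sources used here. Ensembl identifiers were matched to GENCODE M21 symbols (14350 of 14427). The 41 members, their roles and all lists were chosen with earlier results of these data known.

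Counts were scaled by TMM and fitted with edgeR 4.0.16 (R 4.3.3), 1 mean per line over all 24 libraries, with the quasi-likelihood test and Benjamini-Hochberg adjustment at 0.05. A filter of 1 CPM in 2 libraries removed 0 genes. This test was used for counts in place of the study's limma with quality weights, which was run as an alternative with limma 3.58.1, as was DESeq2 1.42.0. Other alternatives were DESeq2 size factors, no filter, a filter of 5 CPM in 3 libraries, fits to the lines compared alone, a fold threshold, a replicate block and leaving out each library. Fit scripts were tested on simulated data. Log2 fold changes were named for the 3 largest called rises and falls, provided that each library of the line with more expression held 10 counts or more, and for the 2 largest differences between sexes per mutation; library values were given for the member of each role whose lines differ most, and other members by levels chosen after their values were seen. Depth of 52787288 to 136503809 counts per library sets the precision: members under about 10 counts per library are uncertain. Promoter sequences came from RefSeq (GRCm38.p6).

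Libraries were not treated as paired by replicate number: over all genes, correlations of deviations between same-numbered libraries were between -0.17 and 0.245 and no comparison had all 3 above 0.1. For male p53 R172H against male p53 KO all 3 were positive (0.245, 0.103 and 0.0664). In both of these lines replicate 1 was the lowest for 33 of 41 members. The library highest for most differed, replicate 3 in male p53 KO (29) and replicate 2 in male p53 R172H (31). 1 further gene of the pathway is not reported here.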

Additional observations from a re-analysis of the deposited data

Results flagged for a closer look

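The test of the male effect minus the female effect passed for 41 of 41 members with R172H, for 40 with Y202C and for 28 with Y217C, where 58.0%, 68.0% and 54.8% of all genes passed in either direction. For R172H the difference was -13.44 for Oas2 and -13.03 for Oas1a on the log2 scale, and for Y202C it was -9.24 for Oas1a and -5.58 for Oas2. Both genes were at 0 to 12 counts in every male library, so the size of these 4 values rests on the small count added in the fit. Both were also kept among the genes analysed only through female p53 R172H. For Y217C the difference was -3.35 for Zbp1 and -2.66 for Oasl2, genes that passed as lower in male p53 Y217C, of which Oasl2 passed as higher in female p53 Y217C. Each sex is represented by 1 pooled culture, so sex and culture cannot be told apart. Groups of 3 libraries were not tested for single libraries that stand apart.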

How the results depend on the processing

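In female p53 R172H 41 members rose under every alternative, and in female p53 Y202C 38 to 41 did. No result changed direction. The 38 came from the fit to the lines compared alone. There the filter of 1 CPM in 2 libraries was applied to those lines only, so low members could drop out untested. In that setting 31 of the 41 members were tested for male p53 R172H. The small counts moved. Members higher in male p53 R172H, 2 in the report, were 5 with limma voomWithQualityWeights, 4 with DESeq2, 4 when fitted to the lines compared alone and 1 where the log2 fold change also had to exceed 0.5 in size, and 1 to 3 when 1 library was left out (1 without male p53 KO replicate 1, male p53 KO replicate 2 or male p53 R172H replicate 2). Members higher in male p53 Y202C, 9 in the report, were 5 with limma. Members lower in female p53 Y217C, 3 in the report, were 5 with limma, 6 with DESeq2 and 3 to 5 with a library left out, and those higher were 13 to 20, with 13 without female p53 Y217C replicate 1. In male against female p53 KO the fold threshold left 9 higher and 2 lower, and leaving out a library gave 7 to 17 higher, with 7 without male p53 KO replicate 3. The causes were not tested. Of single genes, Mx2 in female p53 Y217C (0.74, adjusted p = 0.214 with limma) and Rsad2 between the KO lines (0.99, adjusted p = 0.065 with DESeq2) did not pass. With the replicate block, which shares only a number between lines, male p53 R172H gave 3 higher and 15 lower and the other counts did not change. Genes with 0 to 12 counts, such as Oas1a to Oas3 outside 2 lines, were limited by depth.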
